A study of Homo sapiens with 6 samples.

Results

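The control cells of the study were HEK-293T cells, a line of human embryonic kidney cells that grows as a transformed, fast-dividing culture, transduced with a lentivirus that carried only the multiple cloning site (MCS) and no RUNX1 insert. All the columns labelled MCS in the table of non-normalized signals were taken, which gave 3 arrays of the 6 in the series, and the RUNX1 arrays were not compared with them. The cells had been transduced at 10 multiplicities of infection, selected with 1 µg/ml puromycin and harvested 7 days after transduction, and the study calls the 3 cultures biological triplicates. They are a model of 1 transformed line carrying a vector, so untransduced HEK-293T cells and kidney tissue were not measured here.

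A cell line can keep some transcription factors of its tissue of origin, while many of its most abundant transcripts serve growth. Ribosomal proteins and translation factors build and drive the ribosome, glycolytic enzymes feed dividing cells, and cyclins with their kinases move the cell through division. Receptors decide which hormones, cytokines and transmitters a cell can answer, and HEK-293T is widely used as a host for cloned receptors because it is transfected easily. Whether a receptor is already present in the untreated host is therefore a common practical question for such work.

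A probe was called detected on an array when its deposited detection p-value, which sets its signal against the negative control probes of that array, was under 0.05. A gene was called present when at least 1 of its probes was detected on all 3 arrays, absent when no probe was detected on any array, and mixed otherwise. Of 20046 genes with a named probe, 10048 were present (50.1%), 1991 were mixed (9.93%) and 8007 were absent (39.9%). Absent means not detected by the probes used at this sensitivity, and it does not show that a transcript is missing. The lowest detected signal was 129, 127 and 127 units on replicates 1, 2 and 3, and the median probe had 118, 112 and 113 units. Of 4126 present genes with several probes, 1955 (47.4%) had at least 1 probe never detected, so an undetected probe can miss a present gene. At a detection p under 0.01 the counts were 9400 present (46.9%), 1511 mixed (7.54%) and 9135 absent (45.6%). The arrays detected 19080, 18696 and 18405 of 47231 probes. With 3 arrays, the number of arrays limits the precision of every value below.

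Replicate 1 stood apart from the other arrays. Among present genes, replicates 2 and 3 had a Pearson correlation of 0.992 across genes, whereas replicate 1 had 0.978 with replicate 2 and 0.970 with replicate 3, and genes are not independent replicates. Without replicate 1 the present genes numbered 10287, a count that can only grow when an array is left out, and without replicate 3 they numbered 10433. Values below are therefore given for replicates 1, 2 and 3 in that order. Signals are in the arbitrary intensity units of the scanner, and the order of genes by signal describes brightness on the array, not copies per cell, because probes differ in how well they hybridize.

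The present genes covered a wide range of signal. Their median mean signal was 485 units, with 1908 genes under 200, 5108 between 200 and 1000, 2788 between 1000 and 10000, and 244 above 10000. The 1908 genes under 200 units lay close to the detection limit, and 1265 of them were also present at a detection p under 0.01. The 30 brightest genes held 9.17% of the summed signal of present genes, the 100 brightest held 21.6% and the 1000 brightest held 60.4%.

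**Figure D1:**
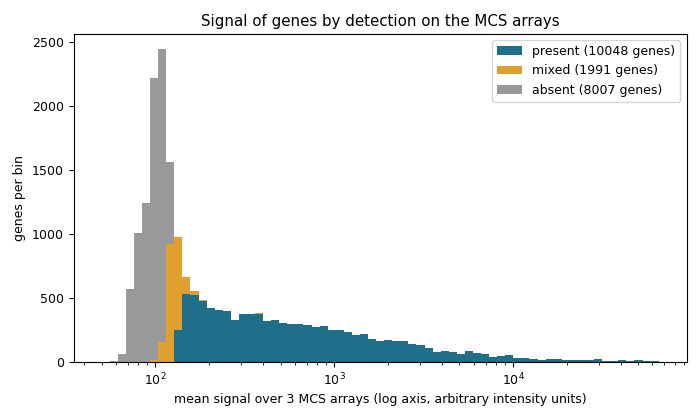
Histogram of the mean signal over the 3 MCS arrays (log axis, intensity units) for present, mixed and absent genes, with the number of genes per bin on the vertical axis. Present genes spread from the detection limit to over 10000 units around a median of 485, while mixed and absent genes pile up at the low end.

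Presence differed between kinds of transcript, and how well the arrays read small RNAs was not tested. The largest share of the kinds listed here was 15 of 24 genes labelled ncRNA (62.5%). Of 17775 protein-coding genes 9555 were present (53.8%), against 120 of 279 small nucleolar RNA genes (43.01%), 153 of 528 transcribed pseudogenes (28.98%), 153 of 798 long non-coding RNA genes (19.2%) and 20 of 561 microRNA genes (3.57%). In 3 protein-coding families chosen after their values were seen, few genes were present. Olfactory receptors, the odorant sensors of the nose, were present for 7 of 384 genes (1.82%), beta-defensins, antimicrobial peptides of epithelia, for 1 of 37 (2.70%), and keratin-associated proteins of hair for 3 of 81 (3.70%). The zinc finger genes named ZNF, a family of DNA-binding proteins also chosen after its values were seen, were present for 255 of 443 (57.6%).

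The brightest transcripts belonged to protein synthesis. EEF1A1, which delivers aminoacyl-tRNA to the ribosome, had 61356, 62227 and 57640.1 units, the highest mean signal of any named gene. RPS29 had 57696, 59023 and 58319.8 units and RPL41 had 59242, 57515 and 57809.9 units; both encode ribosomal proteins. The arrays differed little at these genes, and all 3 gave signals near the top of their range, where the highest probe read 61356, 62227 and 62881 units. Of the 30 brightest genes 18 were ribosomal protein genes, as were 45 of the 100 brightest. Genes labelled transcribed pseudogenes also ranked among the 30, RPL13AP5 at 4, RPSAP9 at 9, RPL13AP20 at 14, RRP7BP at 17 and SLC7A5P2 at 24. They are not part of the 18, and which transcripts their probes read was not tested. The cytosolic ribosomal protein list had 68 present members of 69, with a median mean signal of 29637 units. Its absent member was RPL10, whose 2 probes were both undetected, the brighter with 98.1, 87 and 101 units. Whether these probes read the RPL10 transcript was not tested. Among the brightest 30 were also TPT1, a growth-linked translationally controlled protein (39763, 43931 and 41628 units), UBB, a ubiquitin precursor (38489, 42596 and 41951 units), and H4C3, a histone H4 gene (48846, 44484 and 40726 units).

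**Figure D2:**
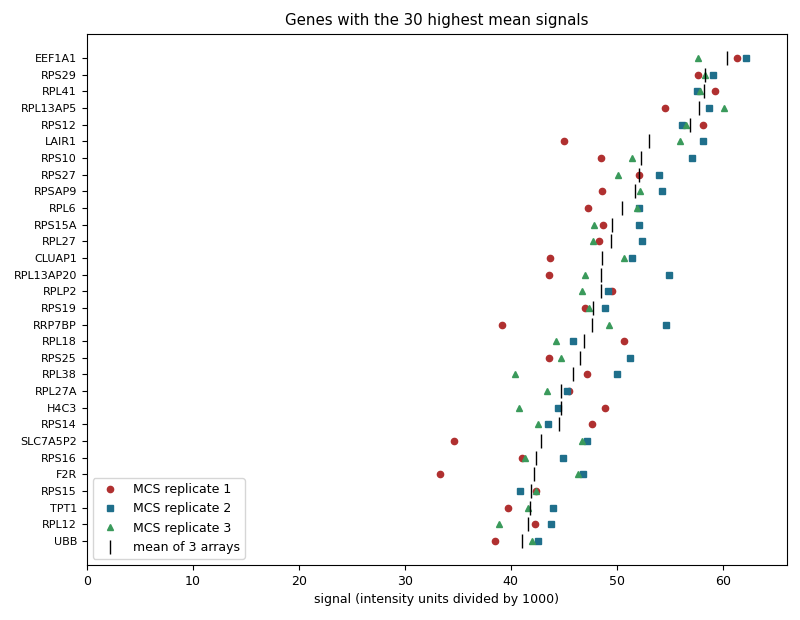
Signal (intensity units divided by 1000) of the 30 genes with the highest mean signal, 1 point per MCS replicate and a bar for their mean. EEF1A1 is at the top. The points of replicate 1 lie left of the other replicates for LAIR1, CLUAP1, RRP7BP, SLC7A5P2 and F2R, and also for others such as RPS10, RPL6 and UBB.

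Part of the brightest set rested on 1 probe of a gene whose other probes read far less. LAIR1, an inhibitory receptor of leukocytes, ranked sixth with 44984, 58148 and 55999 units on 1 probe, and its other probe had 120, 126 and 127 units and was detected only on replicate 3. F2R, the thrombin receptor, had 33332, 46773 and 46337 units on 1 probe and 333, 326 and 256 units on the other. CLUAP1, a ciliary transport protein, had 43652, 51394 and 50678 units on 1 probe, while its 4 other probes read between 205 and 554 units. CCR6, a chemokine receptor of lymphocytes, had 22378, 33112 and 31767 units on 1 probe, 103, 88.7 and 92.7 units on an undetected probe and 130, 168 and 114 units on another. The bright probes were also dimmer on replicate 1 than on both other arrays. The presence of LAIR1, F2R and CCR6 at high signal thus rests on 1 probe each, and which transcript those probes read was not tested. Over all present genes, 4126 had several probes and 1955 of these (47.4%) had at least 1 probe never detected. Among the 100 brightest genes 59 had several probes, and in 19 of them the brightest probe read at least 100 times the dimmest.

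The other housekeeping programs were mostly present. The translation elongation and initiation list had 34 present members of 35, and its remaining member EIF3C, an initiation factor subunit, was mixed at 120.1, 82.2 and 132 units. Of 24 glycolysis genes 19 were present, led by the enolase gene ENO1 (32259, 33461 and 34853 units), LDHA, which makes lactate (27439, 29824 and 25312 units), and GAPDH (24839, 28748 and 28282 units). The absent members were HK3, GAPDHS, PGK2 and PGAM2, isoforms known from blood cells, testis or muscle, although LDHC, a testis isoform, and ENO3, a muscle isoform, were present at means of 438 and 299 units. Of 31 actin, tubulin and intermediate filament genes 25 were present, with ACTG1, cytoplasmic gamma actin, at 28761, 29506 and 27463 units. The smooth muscle actin ACTA2 was present at 1098, 535 and 413 units, and the skeletal and cardiac muscle actins ACTA1 and ACTC1 were absent.

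Cell cycle genes, both drivers and inhibitors of division, were mostly present. Of 34 such genes 28 were present, 20 of them at a mean signal of 1000 or more. These included the inhibitors CDKN1A (5510, 3113 and 3744 units) and CDKN2A (1621, 1486 and 1272 units). The inhibitors CDKN1B, CDKN2B and RB1 were present at lower signals. MCM7, a subunit of the helicase that opens replication origins, had 10995, 12285 and 11363 units. TOP2A, the topoisomerase of S and G2 phase, had 7708, 6295 and 6276 units, and the G1 kinase CDK4 had 6226, 6472 and 4771 units. The absent member was CCNE2, a cyclin of the G1 to S transition, at 79.3, 77 and 70.2 units. MKI67, the proliferation marker Ki-67, was mixed on its single probe at 161, 158 and 127 units. E2F1, MYCN, MYCL and CCNA1 were mixed as well. Of 17 HMG protein and variant histone genes 15 were present, among them H2AZ1, a histone variant of active promoters (26312, 24279 and 21075 units). Of 15 genes that write, erase or read DNA methylation 12 were present. DNMT1, the maintenance methyltransferase, was the brightest at 5452, 6316 and 6037 units, and DNMT3B, TET1, IDH1 and IDH2 were present too. Among the readers and repair enzymes were ZBTB33, the methyl-CpG binder Kaiso, at 4214, 4261 and 3947 units, and TDG, the glycosylase that removes oxidized methylcytosine, at 3663, 3264 and 2893 units. TET2 was absent and the methyltransferase gene DNMT3A was mixed at 130.0, 121 and 109 units.

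Against these programs, marker genes of lineages were present less often. Over 14 lineage lists, 75 of 264 genes were present (28.4%, beside 50.1% of all genes), and 25 of the 75 had a mean signal under 200 units. Over 7 lists of housekeeping and proliferation programs 201 of 225 genes were present (89.3%). The lists were chosen with results of these data known, so the shares describe these lists.

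**Figure D3:**
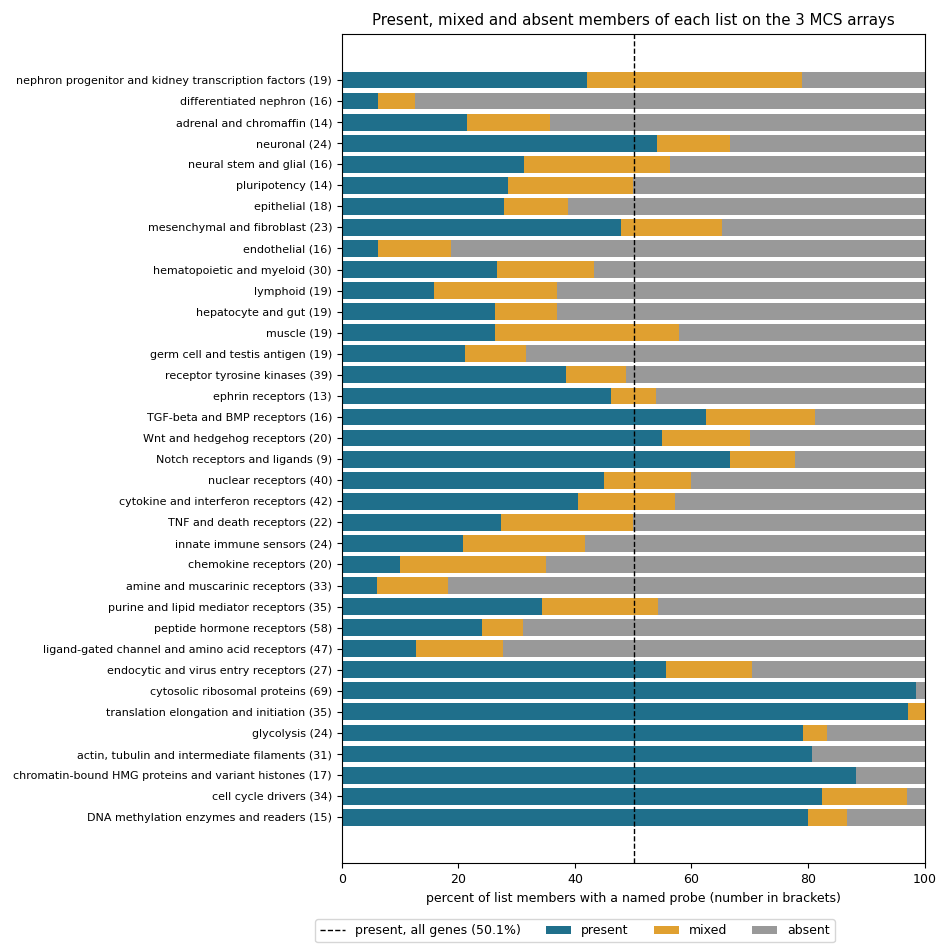
Present, mixed and absent members of each gene list as a percent of the members that have a named probe, with that number in brackets and a dashed line at the 50.1% of all genes that were present. The program lists are mostly present (201 of 225 genes), while the differentiated nephron, endothelial and amine receptor lists are mostly absent.

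The label of embryonic kidney was checked against kidney markers, and most of these were mixed or absent. Of 19 transcription factors of nephron progenitors and kidney development 8 were present (42.1%, under the 50.1% of all genes), 7 were mixed and 4 were absent. IRX3, a homeobox factor of nephron segments, had 1483, 1395 and 1345 units, and SIX4, a homeobox partner of EYA proteins, had 598, 1065 and 1031 units. FOXD1, a factor of kidney stroma, had 521, 757 and 670.0 units, and EMX2, a homeobox factor of the urogenital tract, had 454, 486 and 459 units. CITED1, a coactivator of nephron progenitors, had 2940.4 units on replicate 1, against 492 and 372 on replicates 2 and 3. PAX2, PAX8, SALL1 and POU3F3, all regulators of kidney development, were absent, PAX2 at 119, 115 and 104 units. SIX2, which maintains nephron progenitors, was mixed at 119, 146 and 136 units and undetected only on replicate 1, and WT1 was mixed at 138, 144 and 123 units. Of 16 genes of differentiated nephron segments 1 was present (6.25%), PODXL, the podocyte surface protein podocalyxin, at 439, 439 and 349 units. NPHS1, SYNPO, CUBN, SLC34A1, SLC5A2 and SLC22A6, which make the podocyte slit and the proximal tubule transporters, were all undetected on the 3 arrays, and LRP2, which encodes megalin, was mixed at 136, 114 and 103 units. Of the kidney markers, part of the transcription factors was thus detected, and of the genes of mature nephron cells none but PODXL was detected on all 3 arrays.

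Neuronal markers were the lineage list with the largest share present. Of 24 genes 13 were present (54.2%), a share near the 50.1% of all genes, and 11 were present at a detection p under 0.01. Of the 13, 4 were at 1000 units or more. UCHL1, a deubiquitinase abundant in neurons, had 4315, 3696 and 3016 units. NEFM, medium neurofilament, had 3032, 2936 and 2507 units. GAD1, which makes the transmitter GABA, had 1130.2, 1123 and 1095 units, and its other probes were also detected on all 3 arrays. The signals shown for GAD1 differed little between arrays, while those of UCHL1 and NEFM fell from replicate 1 to replicate 3. The list also had 3 mixed and 8 absent members. NEFH, MAP2, DCX, SNAP25, RBFOX3 and ELAVL3, the first of the absent ones in list order, include structural proteins and factors of mature or migrating neurons, with MAP2 at 117, 121 and 116 units on the brightest of 4 undetected probes. In the neural stem and glial list 5 of 16 were present, among them the fate factors OLIG2 (472, 526 and 489.5 units) and PAX6 (403, 466 and 478 units). SOX2, a factor of neural and pluripotent stem cells, was mixed at 160.0, 151 and 123 units. Of the 14 adrenal and chromaffin genes 3 were present. The brightest was HAND1, a bHLH factor of sympathetic and heart development, at 871, 1638 and 1367 units, and TH, DBH and PNMT, the enzymes of catecholamine synthesis, were absent. HAND2 (179, 177 and 166 units) and CYP11A1 (162, 165 and 155 units) were the other present members, both at a mean under 200 units.

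The pluripotency list had 4 present genes of 14. LIN28B, which blocks maturation of let-7 microRNAs, had 3370.3, 2592 and 1994 units, while its paralogue LIN28A and NANOG were absent and POU5F1 was mixed at 117, 120.0 and 129.7 units. Some markers of both epithelial and mesenchymal cells were present. Of 18 epithelial genes 5 were present (27.8%), and the brightest was the keratin KRT10 at 2088, 2123 and 2461 units. The simple-epithelium keratins were lower, KRT18 at 511, 481 and 550.2 units and KRT8 at 285, 226 and 293 units. The adhesion protein EPCAM had 312, 226 and 223 units, and E-cadherin (CDH1) had 147, 214 and 144 units. The 11 absent ones included the keratins KRT19, KRT7, KRT5 and KRT14 and the epithelial splicing regulators ESRP1 and ESRP2. Of 23 mesenchymal genes 11 were present (47.8%), with vimentin (VIM) at 4816, 7475 and 6326 units, N-cadherin (CDH2) at 1171, 1611 and 1208 units and the bHLH factor TWIST1 at 707, 721 and 753 units. Fibronectin (FN1) and the collagens COL1A2 and COL3A1 were absent, and COL1A1 was mixed at 137, 132 and 114 units. LUM, the matrix proteoglycan lumican, was mixed because replicate 1 read 395 units and replicates 2 and 3 read 123 and 125 units.

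Blood cell genes bear on the study because SPI1, which encodes the myeloid transcription factor PU.1, is the locus it examined. Both SPI1 probes were undetected on all 3 arrays, the brighter at 110.0, 103 and 123 units and the dimmer at 84.1, 90.01 and 89.9 units. RUNX1 was detected by 1 of 3 probes on replicate 3 alone, at 113, 111 and 132 units, and its 2 other probes were never detected. Of its paralogues, RUNX2 was absent, and RUNX3 was present on 1 of 2 probes at 233, 284 and 255 units. Over the hematopoietic and myeloid list 8 of 30 genes were present (26.7%). The brightest were GFI1, a repressor of blood stem and myeloid cells (628, 497 and 461 units), KIT, the stem cell factor receptor (438, 598 and 543 units), CEBPA, the partner of PU.1 in myeloid differentiation (487, 418 and 352 units), and MYB, a factor of blood progenitors (383, 364 and 309 units). All 4 genes lay well above the lowest detected signal on every array. Present at means under 200 units were GATA2 (171, 190 and 218 units), CD14 (156, 209 and 183 units) and AIF1 (176, 181 and 173 units). CSF1R, CD34, LMO2 and FCGR3A were mixed. PTPRC, which encodes the pan-leukocyte antigen CD45, was absent on all 4 probes, the one shown at 102, 102 and 115 units, and GATA1, TAL1 and LYL1 were absent too. Of 19 lymphoid genes 3 were present, 2 of them under 200 units. They were CD79B at 208, 199 and 206 units, CD79A, and MS4A1, which encodes CD20, at 145, 132 and 139.5 units. CD3D, CD3E and CD3G, the T cell receptor complex, were absent.

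The remaining lineage lists held isolated genes. Of 16 endothelial genes 1 was present, SOX18, a vascular transcription factor, at 283, 269 and 291 units, and PECAM1, CDH5 and KDR were absent. Of 19 hepatocyte and gut genes 5 were present, among them the intestinal homeobox factor CDX2 (555, 556 and 481 units) and ALB, which encodes serum albumin, at 226, 247 and 246 units on 1 probe, with its other probe undetected at 102, 101 and 116 units. AFP, APOB and APOH, secreted by liver, were absent. Of 19 muscle genes 5 were present, led by the cardiac factor NKX2-5 (613, 536 and 515 units). CKM, muscle creatine kinase, was mixed with 219.7 units on replicate 1 and 103 and 93 on replicates 2 and 3. Of 19 germ cell genes 4 were present, among them the tumour antigen PRAME (417, 444 and 409 units) and TDRD1, a piRNA pathway protein (219.7, 367 and 328 units), while the germline helicase gene DDX4 was absent.

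Over 15 receptor lists 143 of 442 genes were present (32.4%, beside 50.1% of all genes), 44 of them under 200 units, and 234 were absent. The shares by list ran from 66.7% for Notch receptors and ligands and 62.5% for TGF-beta and BMP receptors to 6.06% for receptors of amine transmitters. The Notch and TGF-beta lists belong to developmental signalling, but they are small. Of 9 Notch genes 6 were present, 3 of them under 200 units. Of 16 TGF-beta and BMP receptors 10 were present, 3 of them under 200 units. The next highest share, 55.6%, was that of endocytic and virus entry receptors. DLL3, an inhibitory Notch ligand, had 1734, 1539 and 1427 units, and DLL1 had 1324, 556 and 509 units, highest on replicate 1. The activin receptor ACVR1B had 835, 851 and 825 units, while TGFBR1, the type I receptor of TGF-beta, was absent on its single probe at 98.1, 92.9 and 99.5 units. Among Wnt and hedgehog receptors 11 of 20 were present, with the Wnt receptor FZD9 at 656, 347 and 277 units and FZD4 at 453, 427 and 356 units, and PTCH1, the hedgehog receptor, was absent.

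Growth factor receptors were present for 15 of 39 receptor tyrosine kinases (38.5%). FGFR3, a fibroblast growth factor receptor, had 2067, 1269 and 1018 units, RYK, a Wnt co-receptor, had 1005, 1535 and 1057 units and ERBB2 had 542, 567 and 500.4 units. INSR and IGF1R, receptors of insulin and insulin-like growth factor, were absent at 100.3, 92.9 and 111 units and at 86.5, 105 and 82.2 units, each on a single probe, and FGFR1 was absent on both of its probes. Nuclear receptors were present for 18 of 40 genes. PPARG, the fatty acid sensor of fat cells, had 1457, 1679.8 and 1309 units on 1 of 4 probes, and none of its 3 other probes was detected on all arrays. RXRB, the partner of many nuclear receptors, had 949, 1105 and 1093 units. The sex hormone receptors ESR1 and PGR were absent, and the glucocorticoid receptor NR3C1 was mixed at 126, 139 and 131 units. Of 13 ephrin receptors 6 were present, the brightest of them EPHA6 at a mean of 307 units.

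Immune receptors were mostly incomplete as sets. Of 42 cytokine and interferon receptor genes 17 were present. Both chains of the interferon gamma receptor were among them, IFNGR2 at 3577, 3564 and 3173 units and IFNGR1 at 2693, 2689 and 2762 units, as were IL10RB at 1262, 1135 and 941 units and IL13RA1 at 1283, 1052 and 745 units. CSF2RA, the alpha chain of the GM-CSF receptor, had 1333, 1934 and 1674 units. Of 22 TNF and death receptors 6 were present, with TNFRSF10B, a TRAIL receptor, at 1086, 961 and 985 units, and FAS was absent. Of 24 innate sensors 5 were present, and 4 of these were under 200 units. The exception was EIF2AK2, the double-stranded RNA kinase PKR, at 895, 708 and 503 units. MAVS, the adaptor of the RIG-I pathway, had 138, 137 and 134 units, STING1 was mixed at 139, 119 and 109 units, and TLR1 to TLR4 were absent. Of 20 chemokine receptors 2 were present, CCR6 on the single bright probe described above and CXCR4, the CXCL12 receptor, at 512, 986 and 892 units.

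Receptors of transmitters and hormones were largely absent. Of 33 receptors of adrenaline, acetylcholine, dopamine, serotonin and histamine 2 were present, the dopamine receptor DRD4 at 159, 294 and 226 units and the adrenergic receptor ADRA2B at 169, 144 and 158 units, and 27 were absent. Without replicate 1 the dopamine receptor DRD3 (119, 185 and 201 units) and the histamine receptor HRH1 (117, 137 and 142 units) would also be present, which makes 4. Of 47 glutamate, GABA, glycine and nicotinic receptor subunits 6 were present, the brightest being CHRNA5, a nicotinic subunit, at 988, 1729.5 and 1889 units. GRIA1 to GRIA4, the subunits of AMPA receptors, were absent, and so was GRIN1, the obligate NMDA subunit, at 102, 115 and 109 units. Of 58 peptide hormone receptors 14 were present, 7 of them under 200 units. Apart from F2R the brightest was SSTR2, a somatostatin receptor, at 330.2, 428 and 393 units, and the opioid receptors OPRM1, OPRD1 and OPRK1 were absent. Of 35 purine and lipid mediator receptors 12 were present, with the adenosine receptor ADORA2B at 818, 932 and 829 units. Of 27 endocytic and virus entry receptors 15 were present (55.6%). The tetraspanin CD81 had 8880.4, 8337 and 8006 units, the integrin chain ITGB1 had 3185, 3583 and 2982 units, the transferrin receptor TFRC had 2617, 3184 and 2745 units and CXADR, the coxsackievirus and adenovirus receptor, had 1235, 1449.8 and 1267 units. TMPRSS2, the protease that activates several viruses, was absent at 118, 93.7 and 109 units.

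The control cells varied among themselves at a limited number of genes. After background correction and quantile normalization over the 3 arrays, the median SD of a present gene was 0.19 on the log2 scale, and 5281 genes (52.6%) had an SD under 0.2. The highest and lowest arrays differed at least 2-fold for 597 present genes (5.94%). This count was 267 without normalization and 168 with the authors' processed values. Between replicates 2 and 3, 19 genes differed by that much, against 315 between replicates 1 and 2 and 519 between replicates 1 and 3. Replicate 1 was at least 2-fold above both other arrays for 117 genes and below both for 128, and with the authors' processed values for 42 and 50. These counts took only genes at which the other arrays differed less than 2-fold from each other. The like counts were 1 and 0 for replicate 2, and 3 and 7 for replicate 3.

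**Figure D4:**
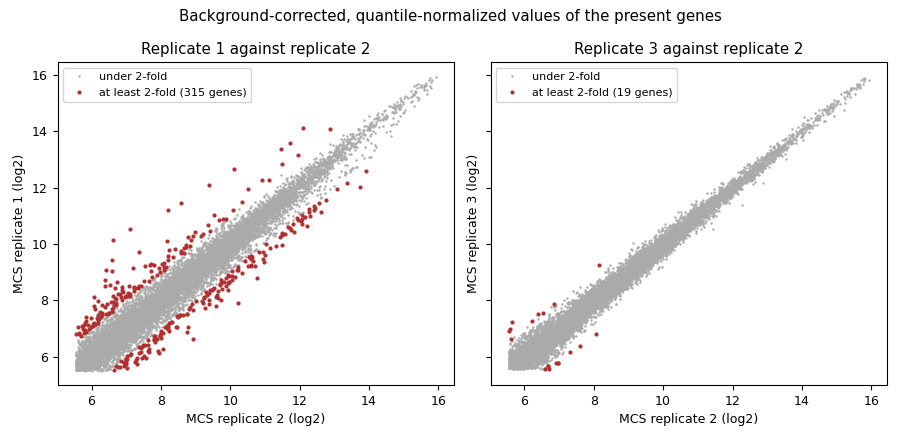
Background-corrected, quantile-normalized log2 values of the present genes, each point 1 gene, for pairs of MCS replicates. Replicates 2 and 3 lie along the diagonal with 19 genes at least 2-fold apart, while replicate 1 has 315 and 519 such genes against replicates 2 and 3.

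The genes that set replicate 1 apart included small RNAs of the nucleus. SCARNA11, a guide RNA of the Cajal body, had 1246 units on replicate 1, against 186 and 129 on replicates 2 and 3. SCARNA8 of the same class had 6534, against 1246 and 725, and the U4 spliceosomal RNA gene RNU4-2 had 4511, against 805 and 634. In all of these replicate 1 lay far above replicates 2 and 3, which differed less from each other. Among protein-coding genes CITED1, given above, TIMP3, a metalloprotease inhibitor (629.8, against 173 and 149 units), and PSG4, a pregnancy-specific glycoprotein (774, against 183 and 222 units), were also higher on replicate 1. Lower on replicate 1 were SAT1, which breaks down polyamines (4225, against 14634 and 16877 units), MIR503HG, a microRNA host transcript (328, against 1352 and 1027 units), the mitochondrial creatine kinase gene CKMT1A (536, against 1962 and 1752 units), ANXA1, an annexin (163, against 370.2 and 390.1 units), and SNAI2, a repressor of epithelial genes (203, against 547 and 422 units). CKMT1A and CKMT1B are near-identical copies, so their probes may share signal. Whether culture, RNA quality or hybridization differed for replicate 1 was not tested. Of the list members, 3 of the 8 present kidney factors and 3 of the 11 present mesenchymal genes had a range of at least 2-fold, and none of the 68 ribosomal protein genes did.

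The promoters of present genes held more CpG than those of absent genes, a feature that the detection calls did not use and that is given as a description with no test. CpG dinucleotides are depleted from most of the human genome and kept in CpG islands, where many promoters of broadly used genes lie. The promoter windows of RefSeq (GRCh38.p14), from 250 bases before to 50 bases after the first listed start, were matched for 14439 of 17152 protein-coding genes with a probe that do not lie on chromosome 8. The median ratio of observed to expected CpG was 0.854 for 8044 present genes, 0.704 for 1367 mixed genes and 0.420 for 5028 absent genes. A ratio of at least 0.6 was found in 86.0% of present, 60.1% of mixed and 39.5% of absent promoters, beside 67.4% of all genes with a probe and 48.96% of the 27305 promoters in the table. Present genes under 200 units lay between, with 74.5%. Among program lists the share was 98.3% for ribosomal protein genes (59 promoters) and 92.3% for cell cycle genes (26 promoters), and it was 15.4% for the differentiated nephron list (13 promoters). Other lists did not follow their detection: the share was 58.3% for glycolysis genes (24 promoters), which were mostly present, 91.7% for ephrin receptors (12 promoters), of which 6 of 13 were present, and 57.7% for amine receptors (26 promoters), which were mostly absent.

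**Figure D5:**
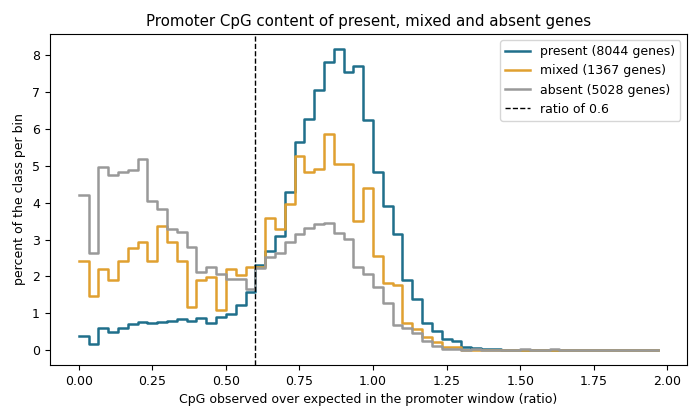
Distribution of the observed over expected CpG ratio in the promoter window for present, mixed and absent genes, as the percent of each class per bin, with a dashed line at 0.6. The median of present genes is 0.854, while 39.5% of absent genes lie at or above the line.

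The range is seen in 5 promoters, of which the 250 bases upstream of the start are printed 5′ to 3′ on the strand of the gene, with every CG in capitals. EEF1A1, the brightest gene, is on the minus strand at chr6:73521033-73521282 with 20 CpG. LIN28B, the brightest of the 4 present pluripotency genes, is on the plus strand at chr6:104940715-104940964 with 33 CpG. RUNX1, detected on 1 array, is on the minus strand at chr21:34888700-34888949 with 32 CpG. PTPRC, absent, is on the plus strand at chr1:198638790-198639039 with 1 CpG. ALB, present at 226, 247 and 246 units, is on the plus strand at chr4:73404037-73404286 with 3 CpG.
EEF1A1: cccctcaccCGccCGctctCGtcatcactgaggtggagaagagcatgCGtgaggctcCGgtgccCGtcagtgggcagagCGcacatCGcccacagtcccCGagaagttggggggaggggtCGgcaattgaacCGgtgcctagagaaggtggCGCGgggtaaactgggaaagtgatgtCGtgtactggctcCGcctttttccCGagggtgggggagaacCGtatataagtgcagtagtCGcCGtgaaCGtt
LIN28B: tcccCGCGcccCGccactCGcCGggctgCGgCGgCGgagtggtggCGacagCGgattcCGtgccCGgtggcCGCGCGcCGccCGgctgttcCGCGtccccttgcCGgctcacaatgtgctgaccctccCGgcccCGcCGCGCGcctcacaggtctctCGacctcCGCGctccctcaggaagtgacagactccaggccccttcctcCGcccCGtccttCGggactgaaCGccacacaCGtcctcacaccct
RUNX1: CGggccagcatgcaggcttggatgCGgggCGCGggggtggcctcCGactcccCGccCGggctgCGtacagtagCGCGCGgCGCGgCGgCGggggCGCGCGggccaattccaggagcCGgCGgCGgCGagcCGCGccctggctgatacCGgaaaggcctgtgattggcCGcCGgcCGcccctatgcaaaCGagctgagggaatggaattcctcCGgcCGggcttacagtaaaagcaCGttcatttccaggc
PTPRC: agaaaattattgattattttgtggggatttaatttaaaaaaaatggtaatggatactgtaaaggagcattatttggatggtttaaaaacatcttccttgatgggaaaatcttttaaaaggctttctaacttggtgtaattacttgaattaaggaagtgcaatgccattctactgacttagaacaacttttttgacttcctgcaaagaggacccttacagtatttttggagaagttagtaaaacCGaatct
ALB: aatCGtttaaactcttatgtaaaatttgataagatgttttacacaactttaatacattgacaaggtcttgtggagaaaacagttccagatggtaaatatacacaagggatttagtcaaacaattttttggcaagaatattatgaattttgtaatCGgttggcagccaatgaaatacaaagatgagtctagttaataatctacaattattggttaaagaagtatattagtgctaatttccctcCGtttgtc
The exceptions run both ways, for the window of the first listed start, the only one examined. RUNX1 has a CpG-rich window without being called present, and ALB has a CpG-poor one and was present on 1 of its 2 probes.

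Other motifs also occurred at different shares in the classes. The motif GGGCGG on either strand, which the factor SP1 is known to bind, lay in 71.4% of present, 58.5% of mixed and 41.2% of absent promoters, beside 59.7% of all genes with a probe, and it contains a CG itself and so overlaps the CpG count. The motif TATAAA, read on the gene's strand between 40 and 20 bases before the start, lay in 1.73% of present, 3.44% of mixed and 6.60% of absent promoters, beside 3.59% of all. Transcripts of ribosomal proteins are known to begin with a C followed by a run of pyrimidines, through which their translation is controlled. A start at C followed by 4 pyrimidines was found in 69.5% of the ribosomal protein promoters, 33.3% of 27 translation factor promoters, 27.3% of present genes at 10000 units or more, ribosomal protein genes included, 5.84% of present and 3.00% of absent genes, beside 4.66% of all genes with a probe. A match of these letters is a description of the window and not evidence of binding.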

How the data were processed

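Total RNA of HEK-293T cells transduced with the MCS lentivirus was hybridized by the authors to Illumina Human HT-12 v4 BeadChips, 3 arrays. The authors deposited for each probe an intensity on a linear scale, not normalized, and a detection p-value in steps of 1 in 770, and these were the main data. The authors' processed values, treated as log2 and made with lumi (version not given in the sources used here), served only as an alternative. They had a median of 7.20 and a rank correlation of 1 with the intensity of the same array.

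Probes were named through the platform annotation. This gave a single symbol to 30113 of 47231 probes and several to 8, left 17110 without a name, and 30074 matched RefSeq genes of GRCh38.p14. Probes with several symbols were not used. For each gene the value shown is that of its brightest probe among those detected on most arrays. For the spread, log2 values came from neqc of limma 3.58.1 in R 4.3.3 over the 3 arrays, with an offset of 16. Other steps used Python 3.11.15 with numpy 2.4.6 and pandas 2.3.3, and the scripts were tested on simulated data. There was 1 group and so no test.

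Genes to be named were drawn from those the paper names, the 30 brightest, and up to 6 present and 6 absent members and the mixed members of each list. They were also drawn from 10 genes in each direction with the largest range that set replicate 1 apart. Not every gene of these sets is named in the text. Other genes were named after their values were seen. The 36 lists held 1005 entries, 936 of them with a named probe; the others were not analysed here. The lists and the choice of arrays were made with earlier results of these data known. Promoters were restricted to protein-coding genes off chromosome 8 after the coverage of the table was seen (87.3% of present, 81.3% of mixed and 80.4% of absent genes).

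The alternatives were a detection p under 0.01, other choices of probe, other scalings and leaving out each replicate.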

Additional observations from a re-analysis of the deposited data

Results flagged for a closer look

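Signal was also seen in probes that no gene count used, since the annotation used here gave them no gene. Of 17110 unnamed probes, 3391 (19.8%) were detected on all 3 MCS arrays, 230 of them at a mean signal of 10000 units or more, with the brightest at 58003 units. What they read was not tested.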

How the results depend on the processing

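No paired analysis was possible because all counts come from 1 group and no test. Leaving out 1 array gave 10246 to 10433 present genes, 8267 to 8618 absent genes and 1141 to 1511 mixed genes, the lowest mixed count without replicate 1. It kept 28 to 30 of the 30 brightest genes and gave 224 to 239 present lineage and receptor genes, against 217 with all arrays and 190 at a detection p under 0.01. Among genes with a single named probe 5922 were present and 1191 mixed. The count of present genes with a range of at least 2-fold, 597, was 267 without normalization, 168 with the authors' processed values and 369 with an offset of 50. Without 1 array it ranged between 19 and 508, with 19 left without replicate 1 and 325 without replicate 3. Replicate 1 was the array apart for 42 to 117 genes above and 50 to 129 below over the 5 scalings. The share of promoters with a CpG ratio of at least 0.6 was 87.2% of present and 41.6% of absent genes at a detection p under 0.01, and 40.9% of absent genes without replicate 1. By the mean of all present probes 21 of the 30 brightest genes were shared. Present members stayed within 1.5 times in 140 of 144 list and setting pairs. The 4 others were endothelial genes without replicate 3 (2), muscle (3) and germ cell genes (2) at a detection p under 0.01, and amine receptors without replicate 1 (4). Signal near the negative controls limits every call under about 200 units.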
